A study of Homo sapiens with 18 samples.

Results

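SR, hnRNP and RBM protein genes encode RNA-binding proteins that act on splicing and other steps of RNA processing, and here their own transcription past the annotated gene end was followed in K562 cells. Members were the transcripts of the readthrough table whose GENCODE 44 gene symbol began with SRSF or RBM and a digit, with RBMX, or with HNRNP. This rule took 72 of 13051 transcripts, 1 per gene: 11 SRSF genes, 22 HNRNP genes and 39 RBM genes. Of the transcripts in the table, 12704 had a symbol in GENCODE 44 and 347 did not, and the latter could not be searched.

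The study sequenced nascent RNA on the PacBio platform, so that 1 read spans the body of a transcript and its 3′ end, and the authors counted for every transcript the reads that run on past its annotated end. K562 is a line from chronic myeloid leukaemia in blast crisis that carries the Bcr-Abl1 fusion, and all 18 libraries were made from this line. Each of 6 groups held 3 libraries that the labels call biological replicates.

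The untreated groups were CTRL and CTRLim, and CTRLim was prepared alongside the imatinib libraries. KCl 45min cells had 110 mM KCl for 45 min, a hyperosmotic shock, and JTE 1h cells had 5 µM JTE-607, an inhibitor of the cleavage enzyme CPSF73, for 1 h. IM 1h and IM 18h cells had 1 µM imatinib, the Bcr-Abl1 kinase inhibitor, for 1 h or 18 h. Imatinib libraries were compared with CTRLim, and KCl 45min and JTE 1h libraries with CTRL.

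Libraries held between 229855 reads (CTRLim replicate 1) and 1349556 reads (IM 18h replicate 3) after the authors removed polyadenylated reads and splicing intermediates. Between 8422 and 57982 of these per library were readthrough reads of any gene, and between 227 and 1512 belonged to the 72 members. A value in RPM below is the number of readthrough reads of a gene per 1000000 library reads, and 1 read weighs from 0.741 RPM in the deepest library to 4.35 RPM in the shallowest. Readthrough per library read mixes how much a gene was transcribed with how often its transcripts were left uncleaved, and the counts do not separate these.

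Several libraries stood apart before any gene was looked at. CTRL, KCl 45min and JTE 1h libraries had 40.5% to 44.1% of raw reads mapped, and CTRLim and imatinib libraries 84.3% to 91.6%, so treatments were compared within these sets of 9 and 9 libraries, each of which holds an untreated group. In JTE 1h, replicate 1 had 3.06% of its library reads in readthrough, below the 3.32% to 3.55% of the CTRL libraries, while replicates 2 and 3 had 5.40% and 5.05%. CTRLim replicates 2 and 3 differed by no more than sampling noise in a chi-square test over 192 genes (chi-square 217 on 191 degrees of freedom, p = 0.0931), whereas both pairs with CTRLim replicate 1 differed (p = 1.6e-13 and 3.89e-11). Their mapped shares of 86.7% and 88.1% and their totals of 540074 and 492306 reads are not those of 1 library deposited again. They were kept as separate replicates, as labelled, but these values do not show whether they came from separate cultures. The count with the pair merged into 1 sample is given for the 18 h comparison below. All 3 pairs of IM 1h libraries also differed by no more than sampling noise, with chi-square between 0.983 and 1.10 times the degrees of freedom. No alternative merged them, and whether they came from separate cultures is likewise not shown.

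The label K562 was checked on readthrough reads of erythroid and leukaemia markers. Of 9 such genes 8 were in the table, all 8 had reads, and they summed to 7670 reads, between 30 and 1692 per library. The fetal and embryonic globin genes HBG1 and HBE1 gave 4159 and 2768 of these reads, followed by the transcription factor TAL1 with 408, and GATA1 had 38. Their summed readthrough was not even over the groups: 347 to 385 RPM in CTRL, 71.0 to 241 RPM in KCl 45min, 212 to 316 RPM in JTE 1h, 446 to 822 RPM in CTRLim, 698 to 713 RPM in IM 1h and 1180 to 1264 RPM in IM 18h, 3 libraries each and not tested as sums. Of 10 markers of T cells, B cells, monocytes, hepatocytes, epithelium and fibroblasts 5 were in the table, with 20 reads in all and at most 4 per library, 13 of them on CD3D.

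SR proteins carry a domain rich in arginine and serine, bind exonic enhancers and help the spliceosome define exons, and many also travel with messenger RNA to the cytoplasm. hnRNP proteins coat nascent transcripts through RNA recognition motifs or KH domains, and many of them silence exons or splice sites that SR proteins activate. Proteins named RBM share the RNA recognition motif and otherwise range widely, from spliceosome subunits to factors of RNA methylation and ribosome assembly. Several members of these families control their own transcripts through poison exons and decay by the nonsense-mediated pathway.

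Readthrough reads were spread unevenly over the members. Together they had 12068 of 447434 readthrough reads, which is 2.70% of the reads for 0.552% of the transcripts, and a median of 63.5 reads per member over 18 libraries against 10.0 per transcript of the whole table. No member was without reads, 46 had at least 30 reads over the 18 libraries, and 27 had reads in every library. SRSF genes held 21.2% of the members' reads, HNRNP genes 41.4% and RBM genes 37.4%. Counts were not divided by length, so they order the genes by number of reads and not by level.

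The 10 members with the most reads held 57.4% of them. RBM15, which brings the m6A methyltransferase complex to RNA, had 1307 reads, HNRNPF, which binds runs of G, had 976, and RBM6, a splicing regulator that lies next to RBM5, had 836. Then came SRSF2, an SR protein that binds exonic enhancers, with 682 reads, HNRNPA2B1, a core hnRNP protein, with 656, and HNRNPC, which binds runs of U, with 620. SRSF1, the SR protein first purified as a splicing factor, had 618, RBM14, a paraspeckle protein, had 473, the joined gene RBM14-RBM4 had 415, and HNRNPK, a KH domain protein that binds runs of C, had 349.

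**Figure D1:**
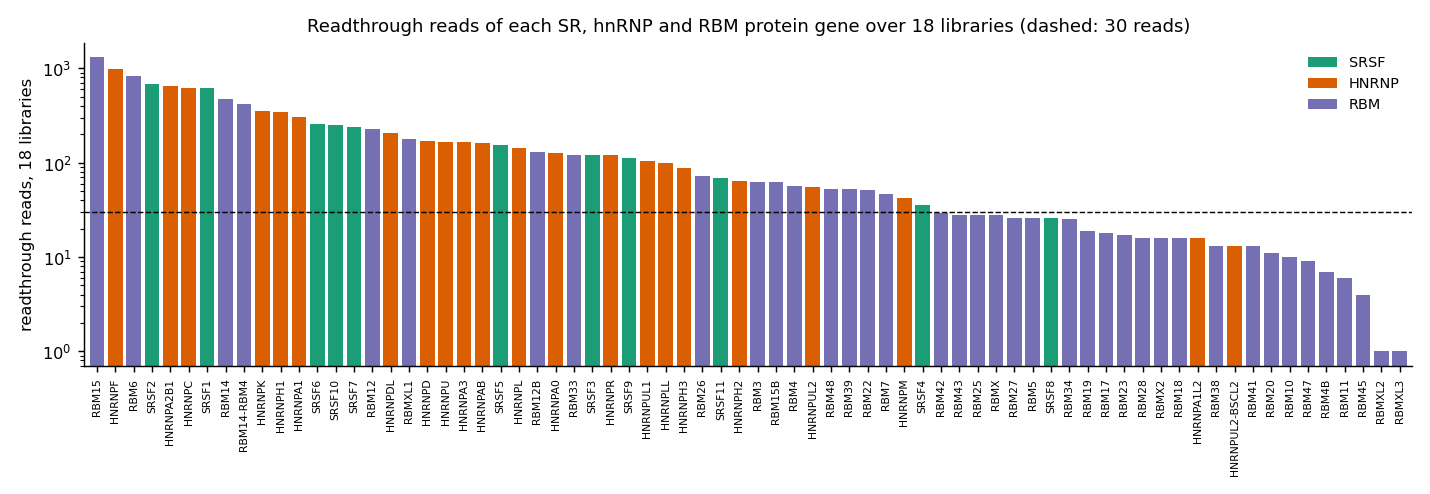
Readthrough reads of each of the 72 genes summed over 18 libraries, on a log axis, with 1 bar per gene coloured by family and a dashed line at 30 reads. The bars run from 1307 reads for RBM15 to 1 read for RBMXL2 and RBMXL3, and 26 genes lie under the line.

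Thinly covered members were mostly RBM genes. The 26 members with under 30 reads were SRSF8, HNRNPA1L2, HNRNPUL2-BSCL2, RBM4B, RBM5, RBM10, RBM11, RBM17, RBM18, RBM19, RBM20, RBM23, RBM25, RBM27, RBM28, RBM34, RBM38, RBM41, RBM42, RBM43, RBM45, RBM47, RBMX, RBMX2, RBMXL2 and RBMXL3. A further 6, which were RBM4, RBM7, RBM22, HNRNPM, HNRNPUL2 and SRSF4, had between 36 and 57 reads but never 30 within the 6 libraries of a comparison. These 32 members entered tests only in alternatives with a lower minimum or none. Of the 40 members tested at least once at 30 reads, 9 were SRSF, 18 HNRNP and 13 RBM genes, and 19 were tested in all 6 comparisons.

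Position and overlap set limits on what some counts mean. In 16 members, 22.2%, the last exon overlapped another annotated gene on the same strand, against 13.2% of all transcripts with a symbol. RBM6 was counted on a transcript of the nonsense-mediated decay type whose last exon overlaps RBM5, RBM14 lies inside RBM14-RBM4, and the end of RBM14-RBM4 lies within RBM4. The authors kept for a read over several genes the gene that it covered most. The counts follow this rule, and the gene of origin of such reads stays uncertain. In 7 members, 9.72%, the counted transcript ended more than 100 bases short of the most distal annotated end of its gene, against 6.27% of all transcripts with a symbol, and in 5 more it ended short by 4 bases or fewer. HNRNPA2B1 was counted on a retained-intron transcript that ends 18515 bases short of the distal end. The others ended short by 2535 bases (RBM41), 2476 (RBM48), 2441 (SRSF1), 1803 (SRSF6), 457 (SRSF10) and 189 (HNRNPUL1). Reads that end at the normal gene end can enter the counts of these 7 members. The median distance to the next coding gene was 20687 bases for members and 15892 bases for all transcripts with a symbol, and SRSF2 had its neighbour METTL23 on the opposite strand at 179 bases.

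Poly(A) signals at the counted ends were read from the annotation. In the last 50 bases of the last exon, read on the sense strand, the hexamer AATAAA was nearest to the end in 43 members, 59.7%, ATTAAA in 11, 15.3%, and neither was present in 18, 25.0%. Over all 12704 transcripts these shares were 58.7%, 15.7% and 25.6%. HNRNPF and HNRNPK had neither hexamer in this window. Below are the 30 bases around the hexamer, in capitals, for the members that passed the test in at least 2 comparisons and have one, because the readthrough described here starts downstream of these sites. SRSF2 lies at chr17:76734133-76734162 on the minus strand, HNRNPA1 at chr12:54287056-54287085 on the plus strand and HNRNPA3 at chr2:177223925-177223954 on the plus strand, from GENCODE 44 transcripts on GRCh38. A match of letters is a description and not a measured cleavage site.
SRSF2: ttctgtagtttaATTAAAacattttcttgg
HNRNPA1: gtttttttttttAATAAActgtatttaact
HNRNPA3: ttaccagtaagtAATAAAacaacaggaaac

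Summed over the 72 members, readthrough was 726, 787 and 982 RPM in CTRL, 606, 723 and 587 RPM in KCl 45min, and 742, 1684 and 1318 RPM in JTE 1h. It was 1283, 989 and 1019.7 RPM in CTRLim, 1219.8, 1167 and 1208 RPM in IM 1h, and 1043, 986 and 1025 RPM in IM 18h. All KCl 45min libraries lay below all CTRL libraries, JTE 1h replicate 1 lay among the CTRL libraries with the other two above them, and all IM 18h libraries lay below all IM 1h libraries. CTRLim libraries overlapped with both imatinib groups. No p-value was computed for these sums.

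Scaled to all readthrough reads instead, the members' share moved little. It was between 2.18% and 2.77% in CTRL, 2.47% and 2.73% in KCl 45min, 2.42% and 3.12% in JTE 1h, 2.61% and 2.89% in CTRLim, 2.65% and 2.79% in IM 1h, and 2.64% and 2.84% in IM 18h. The log2 ratio of the summed values was -0.24 for IM 18h against IM 1h per library read and 0.01 as a share of readthrough reads, and for KCl 45min against CTRL it was -0.38 (-0.24 without CTRL replicate 3) and 0.11. For JTE 1h against KCl 45min it was 0.97 per library read, 0.04 as a share, and per library read 1.23, 0.69 and 0.93 without JTE 1h replicate 1, 2 and 3. For JTE 1h against CTRL it was 0.58 per library read, 0.15 as a share, and per library read 0.85, 0.31 and 0.54 without these replicates in turn. Share ratios also moved with single libraries. For JTE 1h against KCl 45min the share ratio was 0.121 without JTE 1h replicate 1 and -0.065 without JTE 1h replicate 2. For JTE 1h against CTRL it lay between 0.044 and 0.255, and for KCl 45min against CTRL between 0.034 and 0.21. The lower sums in KCl 45min and IM 18h thus hold per library read, narrowly for KCl 45min, and not as a share of readthrough reads. As a share the imatinib ratio is near 0 and turns to -0.01 without IM 1h replicate 2 or IM 18h replicate 1.

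**Figure D2:**
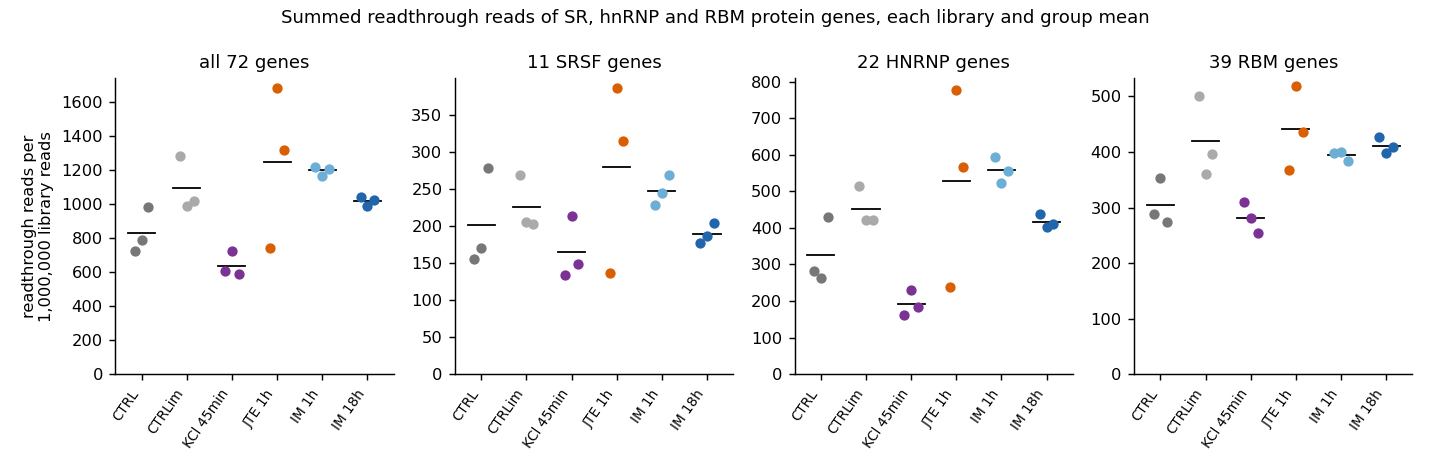
Readthrough reads per 1000000 library reads, summed over all 72 genes and over each family, with 1 point per library (3 per group) and a line at the group mean. HNRNP sums in IM 18h lie between 402 and 438 RPM, below those in IM 1h, and in JTE 1h they spread from 237 to 778 RPM.

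The sums of the 3 families lay differently between the imatinib time points. For SRSF genes the sums were 229, 244 and 269 RPM in IM 1h and 178, 186 and 205 RPM in IM 18h, and for HNRNP genes 593, 523 and 556 RPM and then 438, 402 and 411 RPM. For RBM genes they were 398, 399 and 384 RPM in IM 1h and 427, 398 and 409 RPM in IM 18h. SRSF and HNRNP sums were lower in every IM 18h library than in any IM 1h library, while RBM sums of these groups overlapped. Log2 ratios per library read and as a share of readthrough reads were -0.39 and -0.14 for SRSF, -0.42 and -0.17 for HNRNP, and 0.06 and 0.31 for RBM genes. Without RBM15 the RBM ratios were -0.06 and 0.18, a set chosen after seeing the data, so the sign of the RBM sum per library read rests on RBM15. As shares the RBM groups did not overlap, at 0.875% to 0.911% in IM 1h and 1.07% to 1.16% in IM 18h, and the SRSF and HNRNP groups did. The difference between families was not tested.

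For HNRNP genes the sum was also lower under KCl than in CTRL per library read. It was 283, 263 and 429 RPM in CTRL, 163, 229 and 184 RPM in KCl 45min, and 237, 778 and 567 RPM in JTE 1h. Per library read every KCl 45min library lay below every CTRL library, and the lowest JTE 1h library, replicate 1, lay below all CTRL libraries. The log2 ratio of KCl 45min to CTRL was -0.76 per library read and -0.26 as a share of readthrough reads for HNRNP genes. As shares these groups overlapped, at 0.848%, 0.793% and 1.21% in CTRL and 0.664%, 0.855% and 0.855% in KCl 45min, and the share ratio was -0.05 without CTRL replicate 3 and -0.15 without KCl 45min replicate 1. For SRSF genes the ratio was -0.28 per library read, 0.02 without CTRL replicate 3, and 0.20 as a share. For RBM genes it was -0.12 per library read, 0.00 without CTRL replicate 2, and 0.37 as a share.

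The comparison of IM 1h with CTRLim asks how readthrough stood after 1 h of imatinib, and 0 of 30 members tested passed in edgeR, beside 1.52% of all 988 genes. The members farthest from 0 were SRSF9, HNRNPR and HNRNPLL, and these 3 were also the members with an unadjusted p under 0.05. For SRSF9, a small SR protein that takes part in splice site choice, CTRLim libraries had 8.70, 1.85 and 4.06 RPM and IM 1h libraries 8.91, 12.2 and 16.2 RPM. For HNRNPLL, which regulates splicing in lymphocytes, CTRLim had 4.35, 5.55 and 4.06 RPM and IM 1h 13.4, 8.72 and 12.5 RPM. The groups of either gene did not overlap, and CTRLim values rest on few reads each. Groups did not overlap for 7 of 30 members tested, 23.3%, beside 18.4% of all genes tested. Log2 fold changes were 1.62 (SE 0.658, adjusted p = 0.212) for SRSF9, 1.37 (SE 0.628, adjusted p = 0.275) for HNRNPR and 1.26 (SE 0.639, adjusted p = 0.349) for HNRNPLL. Here and below p-values are from the quasi-likelihood F-test of edgeR, adjusted by Benjamini and Hochberg over every gene tested, and a gene passed under 0.05.

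Of 72 members 30 had enough reads for the 1 h comparison (7 SRSF, 14 HNRNP and 9 RBM genes). edgeR called 0 of these 30 and DESeq2 called 0 with either set of size factors, while 3 of 30 had an unadjusted p under 0.05, beside 13.3% of all genes. The median log2 fold change was 0.33 for members and 0.19 for all genes tested, and TMM scaling, which centres the readthrough reads themselves, brought these to 0.15 and 0.01. Among the 15 genes called in all, 2 were higher and 13 lower, and with TMM scaling 0 were higher and 16 lower.

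Among the hnRNP genes with many reads, 1 h values of HNRNPC and HNRNPK lay above CTRLim without passing. HNRNPC had 65.3, 55.5 and 63.0 RPM in CTRLim and 101, 75.0 and 67.3 RPM in IM 1h, a log2 fold change of 0.42 (adjusted p = 0.428). HNRNPK had 34.8, 35.2 and 34.5 RPM in CTRLim and 43.1, 52.3 and 43.6 RPM in IM 1h, a log2 fold change of 0.40 (adjusted p = 0.541). Neither gene's groups overlapped, as for 18.4% of all genes tested, whereas those of HNRNPA2B1, HNRNPH1 and HNRNPA1 did. Of the 14 HNRNP genes tested 12 had a positive fold change per library read, where the median of all genes was 0.19, and this count was not tested. HNRNPF, with 139, 90.7 and 97.5 RPM in CTRLim and 113, 97.7 and 98.4 RPM in IM 1h, had a log2 fold change of -0.01 and overlapping groups.

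After 18 h of imatinib 1 of 34 members tested, SRSF2, had less readthrough than in CTRLim, beside 14.1% of all 1386 genes called in either direction and 8.95% called lower. CTRLim libraries had 109, 81.5 and 65.0 RPM and IM 18h libraries 44.7, 48.5 and 49.6 RPM. All 3 IM 18h libraries lay below all 3 CTRLim libraries, and CTRLim replicate 1 was the highest. Groups did not overlap for 90.8% of all 196 genes called and 31.7% of all genes tested. The means were 85.1 ± 22.1 RPM (SD, n = 3) and 47.6 ± 2.60 RPM (SD, n = 3), a log2 fold change of -0.78 (SE 0.257, adjusted p = 0.0316). The call was narrow: adjusted p was 0.0962 without CTRLim replicate 1, 0.117 without CTRLim replicate 2, 0.0644, 0.0773 and 0.0894 without IM 18h replicates 1, 2 and 3, 0.0527 with CTRLim replicates 2 and 3 merged into 1 sample, a setting chosen after seeing the data, and between 0.0104 and 0.405 over its 18 alternatives. The log2 fold change lay between -0.95 and -0.46 over the same alternatives.

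The 34 members tested at 18 h against CTRLim were 9 SRSF, 16 HNRNP and 9 RBM genes. The 1 call is 2.94% of them, a share under that of all genes, and no member was called higher. The median log2 fold change was -0.07 for members and -0.01 for all genes, and 0.06 and 0.11 with TMM scaling. With TMM scaling 2 members were called, HNRNPA2B1 and HNRNPR, both higher, in place of SRSF2, so which members pass here depends on the scaling. DESeq2 called 0 members with either set of size factors, and 0 were called with the 2 CTRLim replicates merged. Without CTRLim replicate 1 the called member was HNRNPA2B1, higher, without CTRLim replicate 3 it was SRSF2, and without CTRLim replicate 2 or any IM 18h replicate it was 0 members.

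Members that lay on either side of CTRLim at 18 h without passing came from all 3 families. HNRNPR, an hnRNP protein of the same branch as SYNCRIP, had 0, 5.55 and 6.09 RPM in CTRLim and 12.8, 12.5 and 14.1 RPM in IM 18h, with a log2 fold change of 1.45 (adjusted p = 0.082). SRSF7, an SR protein that also serves in messenger RNA export, had 34.8, 18.5 and 18.3 RPM and then 12.8, 9.39 and 12.6 RPM, with -0.91 (adjusted p = 0.127). The groups of either gene did not overlap, as for 29.4% of members and 31.7% of all genes tested. RBMXL1, a retrocopy of RBMX, had a log2 fold change of -0.81 (adjusted p = 0.161) and overlapping groups. The 9 RBM genes tested ran from -0.81 to 0.68.

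The 2 imatinib time points were compared directly, and here 7 members passed the test: HNRNPA1, HNRNPA3, HNRNPF, HNRNPK, SRSF2 and SRSF7 were lower at 18 h than at 1 h, and HNRNPA0 was higher. IM 1h and IM 18h come from the same library set, and this comparison uses no untreated library. It takes the 3 IM 1h libraries, which differed by no more than sampling noise, as separate replicates. For each of the 7 genes all 3 IM 18h libraries lay on the same side of all 3 IM 1h libraries, as they did for 94.6% of all 315 genes called and 34.8% of all genes tested. The 7 were 18.4% of the 38 members tested, beside 18.3% of all 1720 genes called, a share near that of all genes.

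HNRNPA1, the abundant hnRNP protein that silences exons through UAGG-like motifs, had the smallest adjusted p. Its poly(A) signal stretch is printed above. IM 1h libraries had 40.1, 34.9 and 42.4 RPM and IM 18h libraries 14.9, 14.9 and 17.0 RPM. Every 18 h library was under every 1 h library by a wide margin, and CTRLim, at 21.8, 37.0 and 20.3 RPM, lay between and reached into the 1 h values. The means were 39.1 ± 3.83 and 15.6 ± 1.25 RPM (SD, n = 3 each), a log2 fold change of -1.32 (SE 0.295, adjusted p = 3.65e-04). It was called without each of the 6 libraries in turn and in 15 of 16 alternatives, the exception being DESeq2 with its own size factors (adjusted p = 0.145), and its log2 fold change lay between -1.40 and -1.02. Its counted transcript is of the nonsense-mediated decay type, and its last exon overlaps an unnamed gene on the same strand.

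Both SR genes called between the time points were lower at 18 h. SRSF2 had 66.9, 68.0 and 83.5 RPM in IM 1h and 44.7, 48.5 and 49.6 RPM in IM 18h. SRSF7 had 17.8, 33.1 and 22.4 RPM in IM 1h and 12.8, 9.39 and 12.6 RPM in IM 18h. In either gene the 18 h libraries lay close together and below all 1 h libraries, and for SRSF7 the 1 h libraries were spread more widely than the 18 h libraries. For the log2 fold changes edgeR gave -0.61 (SE 0.193, adjusted p = 0.0158) for SRSF2 and -1.05 (SE 0.352, adjusted p = 0.0233) for SRSF7. SRSF2 lost its call without IM 1h replicate 3 (adjusted p = 0.149), and SRSF7 without IM 1h replicate 2 (0.173), IM 1h replicate 3 (0.0682) or IM 18h replicate 2 (0.088). With TMM scaling adjusted p was 0.296 and 0.140 at log2 fold changes of -0.32 and -0.76, and over all alternatives it ran from 0.00448 to 0.707 and from 0.0237 to 0.503.

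Among the hnRNP A/B genes, HNRNPA3 and HNRNPA0 moved in opposite directions. HNRNPA3, a core hnRNP protein close to HNRNPA1, had 17.8, 19.2 and 28.7 RPM in IM 1h and 10.6, 10.2 and 11.9 RPM in IM 18h. HNRNPA0, an intronless gene whose protein binds AU-rich elements, had 5.94, 1.74 and 6.23 RPM in IM 1h and 11.7, 17.2 and 12.6 RPM in IM 18h. Neither gene's groups overlapped, and HNRNPA0 had between 1 and 5 reads in each 1 h library. The log2 fold change was -1.02 (SE 0.357, adjusted p = 0.0308) for HNRNPA3 and 1.50 (SE 0.486, adjusted p = 0.0178) for HNRNPA0. HNRNPA3 lost its call without IM 1h replicate 2 (0.056) or 3 (0.245) and without IM 18h replicate 2 (0.0779) or 3 (0.0539), and HNRNPA0 without IM 1h replicate 2 (0.115) or 3 (0.0533) and without IM 18h replicate 2 (0.0849). With TMM scaling HNRNPA0 kept its call at a log2 fold change of 1.78 (adjusted p = 0.00481) and HNRNPA3 did not at -0.73 (0.170), and over all alternatives adjusted p ran from 0.00481 to 0.132 and from 0.0386 to 0.543.

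HNRNPF and HNRNPK were also lower at 18 h. HNRNPF had 113, 97.7 and 98.4 RPM in IM 1h and 83.0, 73.6 and 71.1 RPM in IM 18h. HNRNPK had 43.1, 52.3 and 43.6 RPM in IM 1h and 34.0, 25.1 and 29.6 RPM in IM 18h. All 18 h libraries lay below all 1 h libraries in either gene. Their log2 fold changes were -0.45 (SE 0.166) for HNRNPF and -0.65 (SE 0.242) for HNRNPK, each with an adjusted p of 0.0455, close to the threshold, and with the replicate block HNRNPF kept its call (0.0495) and HNRNPK did not (0.0667). Either call was kept without IM 18h replicate 1 and lost without any other of the 6 libraries, with adjusted p of 0.224, 0.0968, 0.0979, 0.088 and 0.147 for HNRNPF and 0.100, 0.199, 0.108, 0.157 and 0.0816 for HNRNPK without IM 1h replicates 1, 2 and 3 and IM 18h replicates 2 and 3. With TMM scaling the log2 fold changes were -0.15 (adjusted p = 0.601) and -0.36 (0.359), and over all alternatives adjusted p ran from 0.0258 to 0.882 and from 0.0222 to 0.733.

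By family, 2 of 9 SRSF, 5 of 18 HNRNP and 0 of 11 RBM genes tested were called between the time points. Of the members 1, or 2.63%, was higher and 6, or 15.8%, were lower, beside 4.19% and 14.1% of all genes. For RBM genes DESeq2 also called 0, and RBM6 and RBM15 had an unadjusted p under 0.05. RBM15 had 147, 133 and 105 RPM in IM 1h and 178, 137 and 155 RPM in IM 18h, a log2 fold change of 0.29 (adjusted p = 0.153). RBM6 had 50.5, 52.3 and 58.6 RPM and then 67.0, 82.2 and 63.7 RPM, a log2 fold change of 0.40 (adjusted p = 0.146). RBM15 groups overlapped and RBM6 groups did not.

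These counts at 18 h against 1 h depend on scaling and on single libraries. The median log2 fold change was -0.37 for members and -0.30 for all genes, and -0.08 and -0.01 with TMM scaling. Over all genes 72 were higher and 243 lower, and with TMM scaling 114 and 95. With TMM scaling 4 members were called, HNRNPA1 lower and HNRNPA0, RBM6 and RBM15 higher, so which members pass depends on the scaling, and the other 5 of the 7 kept their direction without a call. DESeq2 called 0 members with its own size factors and 1, HNRNPA1, with library totals. In place of 7 members, 5 were called without IM 1h replicate 1, 2 without IM 1h replicate 2, 1 without IM 1h replicate 3, 9 without IM 18h replicate 1, 2 without IM 18h replicate 2 and 4 without IM 18h replicate 3. The share over all genes is not given for these fits.

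**Figure D3:**
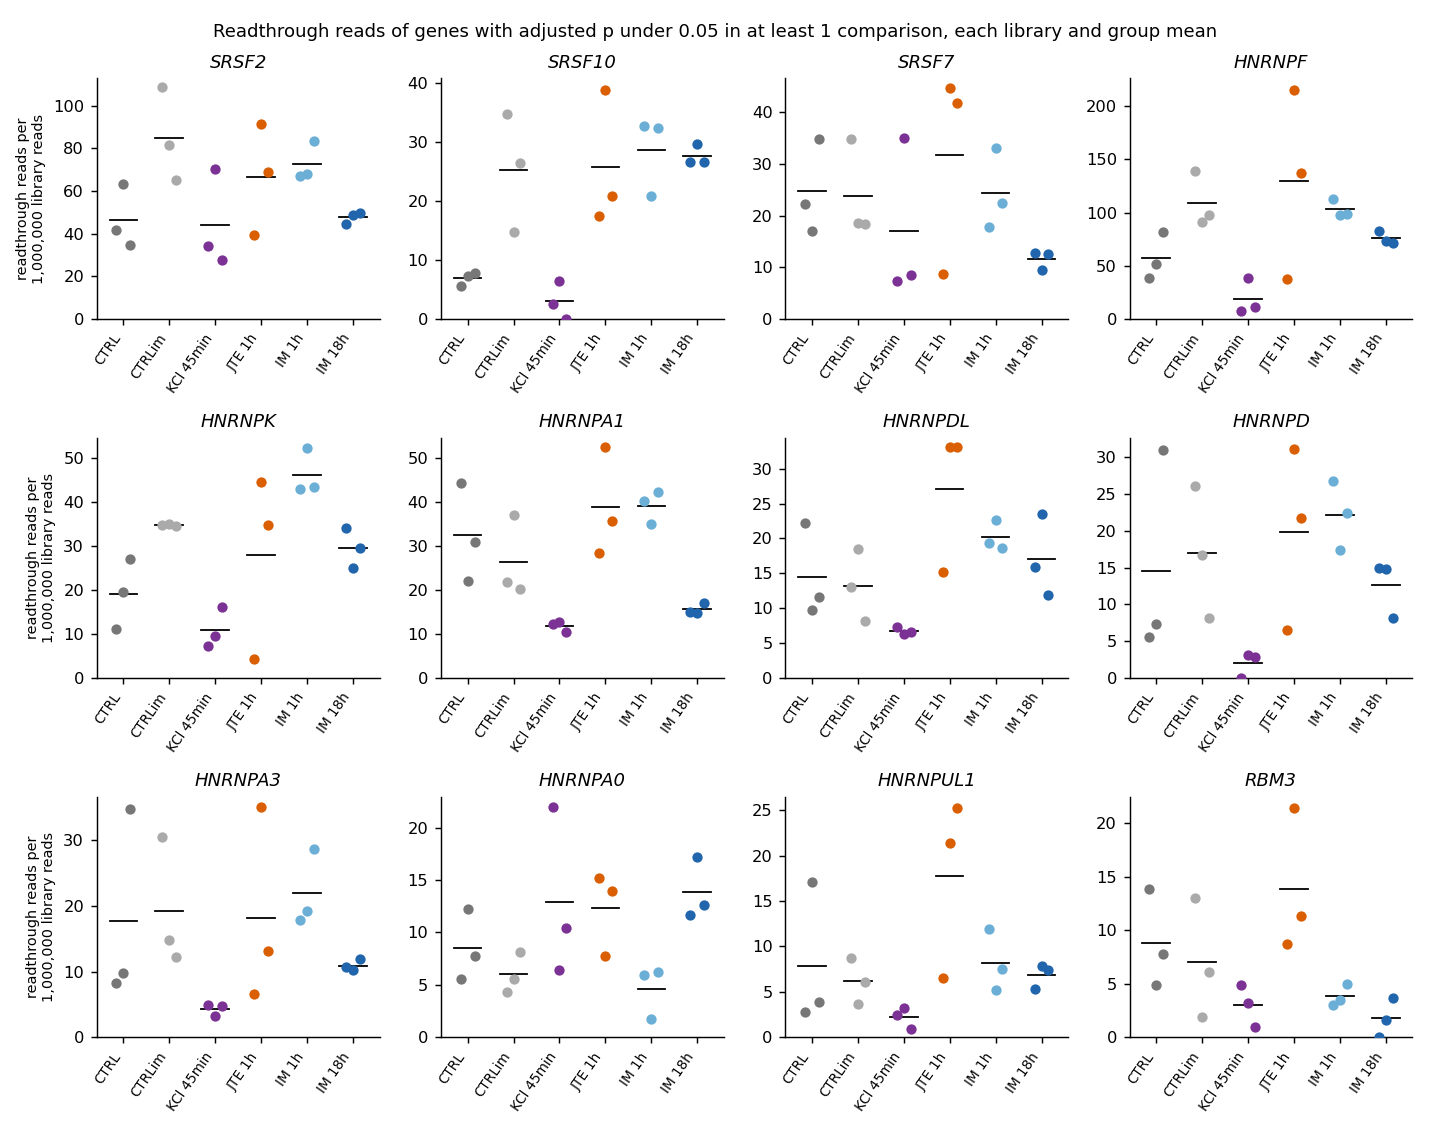
Readthrough reads per 1000000 library reads for the 12 genes with an adjusted p under 0.05 in at least 1 comparison, with 1 point per library (3 per group) and a line at the group mean. HNRNPA1 lies between 14.9 and 17.0 RPM in IM 18h, below every IM 1h library, and between 10.4 and 12.7 RPM in KCl 45min, below every CTRL library.

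KCl treatment tests readthrough under hyperosmotic shock, and in this comparison 2 of 21 members tested, HNRNPF and HNRNPA1, were lower than in CTRL, beside 25.1% of all 378 genes called and 20.9% called lower. HNRNPF had 38.8, 51.2 and 81.2 RPM in CTRL and 7.31, 38.2 and 11.4 RPM in KCl 45min. HNRNPA1 had 44.4, 21.9 and 30.9 RPM in CTRL and 12.2, 12.7 and 10.4 RPM in KCl 45min. KCl 45min libraries lay below all CTRL libraries in either gene, narrowly for HNRNPF, where KCl 45min replicate 2 almost reached CTRL replicate 1. Groups did not overlap for 91.6% of all 95 genes called. Over all genes tested this held for 35.7%, and over members tested for 23.8%. Means were 57.1 ± 21.8 and 19.0 ± 16.8 RPM (SD, n = 3 each) for HNRNPF, and 32.4 ± 11.3 and 11.8 ± 1.21 RPM (SD, n = 3 each) for HNRNPA1. Log2 fold changes were -1.71 (SE 0.555, adjusted p = 0.0160) and -1.47 (SE 0.560, adjusted p = 0.0394).

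Of 72 members 21 had enough reads in CTRL and KCl 45min (6 SRSF, 9 HNRNP and 6 RBM genes), and the 2 called are 9.52% of them, a share under that of all genes. The median log2 fold change was -0.21 for members and -0.39 for all genes, and with TMM scaling 0.26 and 0.09. Over all genes 16 were higher and 79 lower, and with TMM scaling 27 and 49. With TMM scaling HNRNPF (adjusted p = 0.0928) and HNRNPA1 (0.168) were no longer called and HNRNPC was, higher than CTRL, and DESeq2 called 0 members with either set of size factors, while 3 members had an unadjusted p under 0.05 in edgeR. HNRNPF and HNRNPA1 were both called without CTRL replicate 2, HNRNPF alone without CTRL replicate 1 or KCl 45min replicate 2, and 0 members without CTRL replicate 3, KCl 45min replicate 1 or KCl 45min replicate 3. Adjusted p over all alternatives ran from 9.73e-04 to 0.168 for HNRNPF and from 0.0120 to 0.343 for HNRNPA1.

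Members that did not pass under KCl lay on either side of CTRL per library read. HNRNPC had 16.6, 19.5 and 23.2 RPM in CTRL and 31.7, 57.4 and 26.5 RPM in KCl 45min, with no overlap and a log2 fold change of 0.90 (adjusted p = 0.238). HNRNPH1, a relative of HNRNPF that also binds runs of G, had 33.3, 26.8 and 38.7 RPM and then 14.6, 22.3 and 12.3 RPM, with no overlap and -1.06 (adjusted p = 0.143). SRSF1 had 38.8, 51.2 and 112 RPM in CTRL and 60.9, 47.8 and 54.0 RPM in KCl 45min, with -0.27 (adjusted p = 0.737). CTRL replicate 3 was far above the other SRSF1 values. Thinly covered members, RBM17 among them, had 0 reads in all 3 KCl 45min libraries. Among members with at least 30 reads over 18 libraries, this held for HNRNPH2, HNRNPH3 and SRSF11. These genes had too few reads in this comparison to be tested at the minimum of 30 reads. HNRNPH3, with 11.1, 7.31 and 15.5 RPM in CTRL, was called lower with a minimum of 10 reads and with no filter, and HNRNPH2 and SRSF11 were not called in any alternative of this comparison. A count of 0 allows up to 7.31, 9.56 and 2.84 RPM in these KCl 45min libraries (3 reads per library, counting error only).

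JTE-607 blocks cleavage at the poly(A) site, and against CTRL 0 of 32 members tested passed in edgeR, beside 0.103% of all 969 genes. HNRNPF had 38.8, 51.2 and 81.2 RPM in CTRL and 37.0, 216 and 137 RPM in JTE 1h. SRSF10, an SR protein that acts as a splicing repressor when dephosphorylated, had 5.54, 7.31 and 7.73 RPM in CTRL and 17.4, 38.9 and 20.9 RPM in JTE 1h. For HNRNPF replicate 1 of JTE 1h lay just under all CTRL values and the others above all of them. For SRSF10 all JTE 1h libraries were above all CTRL libraries. Groups did not overlap for 3 of 32 members tested, 9.38%, beside 13.8% of all genes tested. Log2 fold changes were 1.21 (SE 0.540, adjusted p = 0.426) and 1.87 (SE 0.697, adjusted p = 0.275).

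The 32 members tested in JTE 1h against CTRL were 8 SRSF, 15 HNRNP and 9 RBM genes, and over the whole table edgeR called 1 gene. DESeq2 called 0 members with either set of size factors, and 3 members, SRSF10, HNRNPAB and HNRNPF, had an unadjusted p under 0.05, beside 11.1% of all genes. The median log2 fold change was 0.54 for members and 0.49 for all genes, and 0.08 and 0.03 with TMM scaling. Per library read 27 of the 32 members had a positive fold change, in a comparison where the median of all genes was 0.49. Without JTE 1h replicate 1 there were 4 members called, HNRNPAB, HNRNPF, SRSF6 and SRSF10, all higher, and leaving out any other library gave 0. The share of all genes called in that fit is not given, so the 4 calls do not set the members apart from other genes.

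JTE 1h and KCl 45min, which share CTRL as their control, were also compared with each other, and 8 members had more readthrough after JTE-607: HNRNPA1, HNRNPA3, HNRNPD, HNRNPDL, HNRNPF, HNRNPUL1, RBM3 and SRSF10. The 8 were 24.2% of the 33 members tested, beside 35.3% of all 999 genes called and 34.1% called higher, a share under that of all genes. For 7 of the 8 all JTE 1h libraries lay above all KCl 45min libraries, and the groups did not overlap for 81.0% of all 353 genes called and 40.5% of all genes tested. HNRNPF was the exception, with JTE 1h replicate 1 at 37.0 RPM just under KCl 45min replicate 2 at 38.2 RPM.

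HNRNPF and SRSF10 had the smallest adjusted p of the members. HNRNPF had 37.0, 216 and 137 RPM in JTE 1h and 7.31, 38.2 and 11.4 RPM in KCl 45min, a log2 fold change of 2.89 (SE 0.606, adjusted p = 4.26e-05). SRSF10 had 17.4, 38.9 and 20.9 RPM in JTE 1h and 2.44, 6.37 and 0 RPM in KCl 45min, a log2 fold change of 3.63 (SE 0.878, adjusted p = 2.32e-04). Taken by replicate number, either gene was higher in JTE 1h in 3 of 3 pairs. For SRSF10, whose groups did not overlap, any pairing gives this, and the labels do not call the replicates paired. Both genes were called without each of the 6 libraries in turn, HNRNPF in all 16 alternatives (adjusted p from 1.05e-07 to 0.0293) and SRSF10 in 14 of 15, the exception being DESeq2 with its own size factors (0.106).

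HNRNPD and its neighbour HNRNPDL on chromosome 4 encode related proteins that bind AU-rich elements and govern RNA decay. HNRNPD had 6.53, 31.1 and 21.8 RPM in JTE 1h and 0, 3.19 and 2.84 RPM in KCl 45min, and HNRNPDL 15.2, 33.1 and 33.1 RPM and then 7.31, 6.37 and 6.63 RPM. In either gene JTE 1h replicate 1 was the lowest of its group and still above KCl 45min. Log2 fold changes were 3.10 (SE 0.862, adjusted p = 0.00142) and 2.00 (SE 0.720, adjusted p = 0.0179). HNRNPD was called without each library in turn and lost its call with TMM scaling (0.0719), while HNRNPDL lost it without JTE 1h replicate 2 (0.0675) or 3 (0.121), without KCl 45min replicate 2 (0.0587) or 3 (0.0993), and with TMM scaling (0.229).

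HNRNPUL1, a relative of HNRNPU, had 6.53, 21.4 and 25.3 RPM in JTE 1h and 2.44, 3.19 and 0.947 RPM in KCl 45min. RBM3, a protein induced by mild cold and the only RBM gene among the 8, had 8.70, 21.4 and 11.3 RPM in JTE 1h and 4.87, 3.19 and 0.947 RPM in KCl 45min. The groups did not overlap, and both genes had few reads under KCl. Fitted log2 fold changes were 3.25 (SE 0.929, adjusted p = 0.00172) and 2.40 (SE 0.962, adjusted p = 0.0306). HNRNPUL1 lost its call without JTE 1h replicate 3 (0.0752) or KCl 45min replicate 3 (0.0605), and RBM3 without JTE 1h replicate 2 (0.309) or 3 (0.086) and without KCl 45min replicate 2 (0.0567) or 3 (0.273). With TMM scaling neither was called (0.0507 and 0.251).

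HNRNPA1 and HNRNPA3, whose poly(A) signal stretches are printed above, also differed between these treatments. HNRNPA1 had 28.3, 52.5 and 35.7 RPM in JTE 1h and 12.2, 12.7 and 10.4 RPM in KCl 45min, and HNRNPA3 6.53, 35.0 and 13.1 RPM and then 4.87, 3.19 and 4.74 RPM. KCl 45min values were tight and JTE 1h values wide, with HNRNPA3 in JTE 1h replicate 1 close to KCl 45min. Log2 fold changes were 1.73 (SE 0.673) and 1.97 (SE 0.776), each with an adjusted p of 0.0306. Either call was kept without JTE 1h replicate 1 and lost without any other library, with adjusted p of 0.132, 0.0897, 0.0778, 0.0718 and 0.133 for HNRNPA1 and 0.451, 0.0681, 0.0553, 0.0814 and 0.121 for HNRNPA3 without JTE 1h replicates 2 and 3 and KCl 45min replicates 1, 2 and 3. With the replicate block HNRNPA1 was called (0.0134) and HNRNPA3 lost its call, just above the threshold of 0.05. With TMM scaling the log2 fold changes were 0.70 and 0.85 (adjusted p = 0.324 and 0.409).

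By family 1 of 8 SRSF, 6 of 16 HNRNP and 1 of 9 RBM genes tested were higher in JTE 1h than in KCl 45min. The median log2 fold change was 1.10 for members and 1.21 for all genes, and 0.09 and 0.17 with TMM scaling. Over all genes 341 were higher and 12 lower, and with TMM scaling 115 and 53. With TMM scaling 2 members, HNRNPF and SRSF10, were called, and DESeq2 called 1 with its own size factors and 6 with library totals. Leaving out JTE 1h replicate 1 raised the members called from 8 to 19. There were 4 without JTE 1h replicate 2, 3 without JTE 1h replicate 3, 6 without KCl 45min replicate 1, 5 without KCl 45min replicate 2 and 3 without KCl 45min replicate 3. No share over all genes is given for these fits, so the counts show only how calls depend on single libraries. Replicate numbers of these groups go together. With the replicate block 9 of 33 members were called, beside 40.3% of all genes, HNRNPA3 dropping out and RBM39 and RBMXL1 joining.

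**Figure D4:**
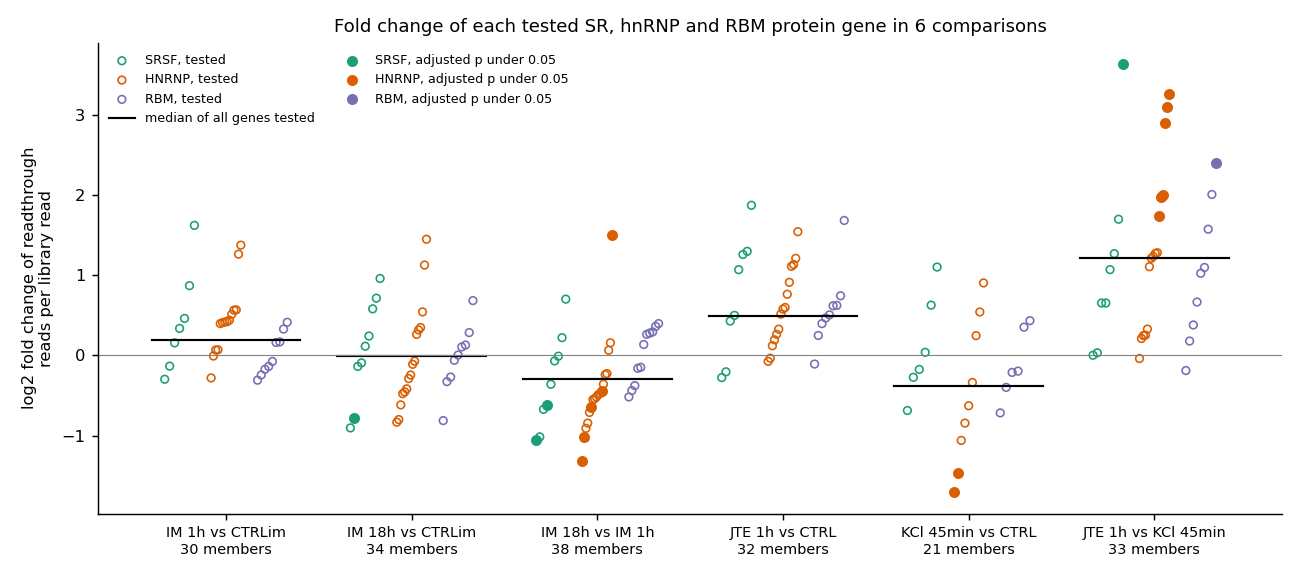
Log2 fold change of readthrough reads per library read for every tested member in 6 comparisons, with 1 point per gene coloured by family, filled points at adjusted p under 0.05, and a line at the median of all genes tested. Members scatter around the median of all genes in each comparison, from -0.39 for KCl 45min against CTRL to 1.21 for JTE 1h against KCl 45min.

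HNRNPA1 and HNRNPF each passed in 3 comparisons, and SRSF2 and HNRNPA3 in 2 each. The comparisons that share libraries are not independent, so their values stand side by side. For HNRNPA1 the log2 fold changes were 0.51 in IM 1h against CTRLim (not called), -0.80 in IM 18h against CTRLim (not called), -1.32 between the time points (called), -1.47 in KCl 45min against CTRL (called), 0.26 in JTE 1h against CTRL (not called) and 1.73 in JTE 1h against KCl 45min (called). For HNRNPF in the same order they were -0.01, -0.48, -0.45 (called), -1.71 (called), 1.21 and 2.89 (called). For SRSF2 in the same order they were -0.14, -0.78 (called), -0.61 (called), -0.18, 0.50 and 0.65.

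Several well covered members were not called per library read in any of the 6 comparisons, though HNRNPA2B1 and RBM15 were called in alternatives given above. HNRNPA2B1, a partner of HNRNPA1 in packaging nascent RNA, had 78.3, 46.3 and 54.8 RPM in CTRLim, 66.9, 78.5 and 77.2 RPM in IM 1h, and 96.8, 70.5 and 82.2 RPM in IM 18h. All 3 groups overlapped with at least 1 other, and log2 fold changes were 0.41 at 1 h and 0.54 at 18 h against CTRLim (adjusted p = 0.441 and 0.171). RBM15 had 196, 129.6 and 118 RPM in CTRLim, and its log2 fold changes lay between -0.40 and 1.02 over the 6 comparisons. SRSF1 had 26.1, 51.8 and 38.6 RPM in CTRLim, 50.5, 59.3 and 62.3 RPM in IM 1h and 30.9, 42.3 and 58.5 RPM in IM 18h, with log2 fold changes of 0.46 and 0.11 against CTRLim (adjusted p = 0.441 and 0.845).

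The neighbours RBM14, RBM14-RBM4, RBM4 and RBM4B lie in a row on chromosome 11. RBM14 had 47.9, 46.3 and 38.6 RPM in CTRLim, 44.6, 40.1 and 32.4 RPM in IM 1h and 24.5, 39.1 and 39.3 RPM in IM 18h. RBM14-RBM4 had 39.2, 31.5 and 30.5 RPM, then 34.2, 36.6 and 49.8 RPM, then 35.1, 34.4 and 25.2 RPM. These imatinib and CTRLim groups overlapped, and neither gene was called per library read in any of the 6 comparisons. Under KCl RBM14 had 36.5, 25.5 and 19.9 RPM against 49.9, 58.5 and 19.3 RPM in CTRL, and after JTE-607 41.3, 73.9 and 56.6 RPM, with log2 fold changes of -0.72 and 0.40 against CTRL (adjusted p = 0.341 and 0.813). RBM4, a splicing regulator, had 57 reads over 18 libraries and RBM4B, its close paralogue, had 7, too few for a test at the minimum of 30 reads. In JTE 1h against KCl 45min the groups of RBM14 and of RBM14-RBM4 did not overlap, with log2 fold changes of 1.09 and 0.66 (adjusted p = 0.128 and 0.388), and RBM14 was called without JTE 1h replicate 1 and with all 18 libraries in 1 fit.

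Other members that the study names were not called with all 6 libraries of a comparison. HNRNPL, which binds CA repeats, had 144 reads over 18 libraries, with 8.70, 13.0 and 10.2 RPM in CTRLim, 5.94, 5.23 and 21.2 RPM in IM 1h, and 2.13, 7.05 and 13.3 RPM in IM 18h. Its values overlapped between these groups, and its log2 fold changes against CTRLim were 0.07 and -0.46 (adjusted p = 0.949 and 0.635). Its groups did not overlap in KCl 45min against CTRL or in JTE 1h against KCl 45min, with log2 fold changes of -0.84 and 1.21 and no call, and the latter was called without JTE 1h replicate 1 (0.0373). RBM5, a splicing factor of an early spliceosomal complex, had 26 reads and RBM28, a nucleolar protein of ribosome assembly, had 16, and neither was tested at the minimum of 30 reads.

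Splicing regulators outside these families were counted from a list of 49 genes, of which 44 had 45 transcripts in the table. Tested transcripts numbered 13 in IM 1h against CTRLim, 13 in IM 18h against CTRLim, 17 between the imatinib time points, 10 in JTE 1h against CTRL, 4 in KCl 45min against CTRL and 11 in JTE 1h against KCl 45min. Called were 0, 0, 2 lower, 0, 1 lower and 5 higher, in that order, beside 1.52%, 14.1%, 18.3%, 0.103%, 25.1% and 35.3% of all genes. In the 3 comparisons with a count of 0 in edgeR, 1, 0 and 1 transcripts had an unadjusted p under 0.05, and DESeq2 called 0 with either set of size factors. Where edgeR called 2, 1 and 5, DESeq2 called 0 in each with its own size factors, and 0, 0 and 3 with library totals.

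Between the imatinib time points the listed genes called were PCBP1 and ILF2. PCBP1, which binds runs of C like HNRNPK, had 14.9, 10.5 and 11.2 RPM in IM 1h and 1.06, 5.48 and 2.96 RPM in IM 18h. ILF2, an RNA-binding protein, had 20.8, 14 and 16.2 RPM in IM 1h and 5.32, 8.61 and 8.15 RPM in IM 18h. Neither gene's groups overlapped, and log2 fold changes were -1.83 (SE 0.522, adjusted p = 0.00570) and -1.16 (SE 0.403, adjusted p = 0.0290). PCBP1 was called without each of the 6 libraries in turn, and ILF2 was not called without IM 1h replicate 1 (0.155) or 3 (0.0824) or IM 18h replicate 1 (0.0644) or 3 (0.0561). With TMM scaling PCBP1 kept its call (0.0346) and ILF2 did not (0.138).

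Under KCl the only listed gene called was TRA2B, an SR-like protein. It had 25.0, 19.5 and 30.9 RPM in CTRL and 4.87, 3.19 and 7.58 RPM in KCl 45min, well apart, with a log2 fold change of -2.01 (SE 0.649, adjusted p = 0.0144). It was called without each library in turn and not with TMM scaling (0.0937) or DESeq2 with library totals (0.0645). In JTE 1h against KCl 45min the called genes were ILF2, EWSR1, TARDBP, CLK2 and TRA2B, and the first 3 had the smallest adjusted p. ILF2 had 15.2, 36.9 and 29.6 RPM in JTE 1h and 4.87, 0 and 0 RPM in KCl 45min, a log2 fold change of 4.31 (adjusted p = 4.26e-05). Without KCl 45min replicate 1 no ILF2 reads remain under KCl, and the fitted 7.27 is then no measured fold. EWSR1, an RNA-binding protein of the FET family, had a log2 fold change of 3.74 (adjusted p = 1.29e-04), and 1 transcript of TARDBP, which encodes TDP-43, had 2.45 (adjusted p = 0.00496). The groups of all 3 did not overlap, ILF2 and EWSR1 were called without each library in turn, and the TARDBP transcript was not without JTE 1h replicate 3 (0.0539) or KCl 45min replicate 3 (0.0969).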

How the data were processed

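The deposited table holds counts: for each transcript and library, the authors counted long nascent reads that run more than 100 nt past the annotated end. Per the submitters' processing notes the tools were cutadapt and minimap2 and the build GRCh38.p14. Library totals are those of the study's table of mapping statistics, after removal of polyadenylated reads and splicing intermediates. Symbols, ends and the poly(A) stretches came from GENCODE 44.

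Each comparison was fitted on its 6 libraries over all genes with at least 30 readthrough reads in them, with library totals as library size, using edgeR 4.0.16 in R 4.3.3 (quasi-likelihood test, Benjamini-Hochberg over all genes tested, called at adjusted p under 0.05). DESeq2 1.42.0 was the other tool. Alternatives changed scaling, the minimum of reads, the libraries, the control and pairing. Replicate numbers were checked for pairing: deviations from the group mean of same-numbered libraries correlated across 999 genes in JTE 1h and KCl 45min (Pearson r 0.272, 0.228 and 0.133), and a replicate block was run as an alternative.

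Genes were named by a rule: the 10 members with most reads, up to 8 called members per comparison, members the study names (SRSF1, RBM4, RBM5, RBM14, RBM28, HNRNPL), up to 3 called genes of the list of other splicing regulators, and the neighbours of RBM14. Genes named for an unadjusted p, for groups that do not overlap or for a count of 0 were chosen after their values were seen. Members, lists and markers were chosen with earlier results of these data known. Tables were made with pandas 2.3.3 and numpy 2.4.6 and plots with matplotlib 3.10.9 under Python 3.11.15.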

Additional observations from a re-analysis of the deposited data

Results flagged for a closer look

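For 7 members readthrough differed between the imatinib time points in edgeR's comparison of IM 18h with IM 1h, which uses no untreated library. Against CTRLim 0 members were called at 1 h, where HNRNPA0 had too few reads for a test, and SRSF2 alone at 18 h. They are 18.4% of 38 members tested, near the 18.3% of all 1720 genes. The log2 fold change of readthrough reads per library read was -1.32 for HNRNPA1, -1.05 for SRSF7, -1.02 for HNRNPA3, -0.65 for HNRNPK, -0.61 for SRSF2 and -0.45 for HNRNPF, all lower at 18 h. For HNRNPA0 it was 1.50, higher at 18 h. With TMM scaling HNRNPA1 and HNRNPA0 alone of the 7 were called.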

How the results depend on the processing

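Direction was kept in all alternatives run for 24 called results of single genes (18 of members and 6 of other splicing regulators), and their calls were kept less often: in 84 of 144 fits that leave out 1 library, 20 of 24 with mapped reads as library size, 22 of 24 with the replicate block, 17 of 24 with a minimum of 10 reads, 16 of 24 with all 18 libraries in 1 fit, 10 of 23 by DESeq2 with library totals, 9 of 24 with no filter, 8 of 24 with total readthrough reads as library size, 7 of 24 with TMM scaling and 1 of 24 by DESeq2 with its own size factors. At a minimum of 100 reads 7 of 7 were kept and the rest were not tested.

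For IM 18h against CTRLim, where 1 member was called, TMM scaling gave 2, and 0 were called with total readthrough reads or mapped reads as library size, a minimum of 10 reads, no filter, DESeq2 with either set of size factors, all 18 libraries in 1 fit, all 6 untreated libraries as control, or CTRLim replicates 2 and 3 as 1 sample (chosen after seeing the data). Over all genes 14.9% were called with TMM scaling, and between 1.51% and 14.8% in the fits with 0 members.

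For IM 18h against IM 1h, 7 in the comparison as reported, 4 members were called with TMM scaling, with total readthrough reads, with mapped reads and with a minimum of 10 reads, 1 with no filter, 0 by DESeq2 with its own size factors, 1 by DESeq2 with library totals and 1 with all 18 libraries. In the same order 12.2%, 12.6%, 14.9%, 6.91%, 2.15%, 3.66%, 6.28% and 6.51% of all genes were called.

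For KCl 45min against CTRL, 2 as reported, 1 was called with TMM scaling and 1 with total readthrough reads, in each HNRNPC, higher. HNRNPH3 was the 1 called with no filter, HNRNPD, HNRNPF and HNRNPH3 the 3 called with a minimum of 10 reads, and 0 were called with a minimum of 100 reads or by DESeq2 with either set of size factors. Shares of all genes called were 20.1%, 18.0%, 1.21%, 13.6% and 20.6% in that order, and by DESeq2 12.4% with its own size factors and 16.4% with library totals. For JTE 1h against KCl 45min, 8 as reported, 2 were called with TMM scaling, 3 with total readthrough reads, 2 with a minimum of 100 reads, 1 by DESeq2 with its own size factors and 19 with all 18 libraries. Beside these stood 16.8%, 18.4%, 38.7%, 6.91% and 50.4% of all genes, in that order.

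Leaving out 1 library gave 0 members in each fit of IM 1h against CTRLim, 0 to 1 for IM 18h against CTRLim, 1 to 9 for IM 18h against IM 1h, 0 to 4 for JTE 1h against CTRL, 0 to 2 for KCl 45min against CTRL, and 3 to 19 for JTE 1h against KCl 45min. No share over all genes is given for those fits, so their counts show only how calls depend on single libraries. With the replicate block, which takes same-numbered libraries as paired, the members called in these comparisons were 0, 1, 6, 0, 2 and 9. The block called 1.01%, 14.1%, 15.9%, 0.413%, 26.5% and 40.3% of all genes, in that order.

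The log2 ratio of the summed reads for IM 18h against IM 1h was 0.01 as a share of readthrough reads, -0.16 per mapped read and -0.31 without RBM15, against -0.24 as reported. As a share of readthrough reads it was 0.11 for KCl 45min against CTRL and 0.045 for JTE 1h against KCl 45min. The cause was not tested for any of these changes.

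Depth limits what can be seen: 32 of 72 members never had 30 reads within a comparison, and in the shallowest library 1 read weighs 4.35 RPM. CTRL and KCl 45min, with 21 members tested, are the thinnest comparison. For members not called, a difference within the spread of 3 libraries was not detectable at this depth, which does not show that it is absent.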
